A study of Mus musculus with 27 samples.

Results

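Semaphorins are guidance ligands, plexins are their receptors, and neuropilins are co-receptors that hold secreted semaphorins and VEGF at the cell surface. The genes followed here were those whose symbol in the count table has the form of a class and a letter (Sema3a, Plxnd1 and so on) or is Nrp1 or Nrp2. The rule gave 31 of the 57683 features in the table: 20 semaphorins (7 of class 3, 6 of class 4, 2 of class 5, 4 of class 6 and 1 of class 7), 9 plexins (4 of the A type, 3 of the B type, Plxnc1 and Plxnd1) and both neuropilins. No measured value was used to choose them.

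The libraries hold the polyadenylated RNA of 27 C57BL/6J mouse hearts, 1 heart each, with no engineered allele named in the labels of any group. Whole hearts came from 7 embryos at E13.5, of unknown sex in the labels. Ventricular apexes came from 6 unoperated males at 6 weeks of age and 6 unoperated males at 16 weeks. They also came from 4 mice at 12 weeks of age after 4 weeks of transverse aortic constriction (TAC), in which a suture around the aortic arch raises the pressure against which the left ventricle pumps, and from 4 sham-operated males at 12 weeks. One of the 4 TAC libraries is labelled female. Embryonic libraries therefore held atria as well as ventricles, whereas adult libraries held only the tip of the ventricles.

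Class 3 semaphorins are secreted and mostly signal through a neuropilin paired with a type A plexin, while Sema3e binds Plxnd1 directly. Classes 4 to 6 span the membrane and bind plexins of the A and B types, and Sema7a is tethered by a lipid anchor and binds Plxnc1 and beta-1 integrin. Bound plexins act inside the cell on small GTPases, which loosens adhesion and reshapes the actin skeleton. In the mouse heart the family is best known for guiding neural crest cells into the outflow tract, for patterning coronary and great vessels, and for placing sympathetic nerves in the ventricular wall.

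Levels are CPM, the counts scaled to a common library total with TMM factors over all 27 libraries. The 7 embryonic libraries held between 7543375 and 12646039 counts. The 6-week libraries held between 2092270 and 2682955, the 16-week libraries between 2164604 and 2642307, the TAC libraries between 10411417 and 11846819 and the sham libraries between 7958592 and 11561952. Base qualities of the unoperated adults were encoded differently from those of all other groups, per the labels, so their encoding and their lower depth cannot be told apart from their group. The summed CPM of 8 cardiomyocyte markers was 18321 to 24399 at E13.5 and 88690 to 144219 in adult libraries, and that of 5 atrial markers was 1611 to 2362 at E13.5 and 37.7 to 122 in adults. Y-linked counts went against the sex label in 8 libraries, 2 in each adult group. E13.5 replicate 3 stood apart: 11 neuron and Schwann cell markers summed to 176 CPM there and to 25.0 to 47.9 CPM in the other embryos. In TAC replicate 3, 9 macrophage markers summed to 1056 CPM, against 743 to 761 CPM in the other TAC libraries. Its fibroblast markers summed to 4834 CPM, against 2454 to 3290 CPM, and its epicardial markers to 45.6 CPM, against 28.6 to 29.5 CPM. The collagen genes Col1a1, Col1a2 and Col3a1 made up most of its fibroblast sum, and the fibroblast markers Dcn and Tcf21 were not highest there. Member calls that changed without E13.5 replicate 3, without TAC replicate 3 or without the libraries against their sex label are given beside the member.

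Plxnd1, Plxnb2 and Nrp1 held the 3 highest levels per length in every group. Per kb of exonic sequence belonging to no other feature, Plxnd1, the receptor of endothelial cells, stood at 92.4 ± 11.8 CPM per kb at E13.5 (SD, n = 7), 55.5 ± 11.2 at 6 weeks (n = 6), 54.9 ± 8.68 at 16 weeks (n = 6), 86.6 ± 9.59 in TAC hearts (n = 4) and 64.1 ± 7.02 in sham hearts (n = 4). Plxnb2, a receptor of class 4 semaphorins, stood at 69.2 ± 6.11, 59.4 ± 5.06, 62.0 ± 7.62, 74.1 ± 6.01 and 58.9 ± 1.92 CPM per kb in the same groups. Nrp1, the co-receptor for Sema3a and VEGF-A, stood at 62.3 ± 5.24, 88.6 ± 12.0, 80.8 ± 6.50, 107 ± 7.52 and 95.1 ± 10.5 CPM per kb. Nrp1 had rank 1 in each adult group and rank 3 at E13.5. Only 42.7% of the exonic bases of Nrp1 and 27% of those of Sema3c are free of overlap with other features, all of them NONCODE transcripts, so their level on this scale depends on the length used. Over all exonic bases Nrp1 was at 26.6 CPM per kb at E13.5 and at 37.9 at 6 weeks, and had rank 3 in every group.

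Of the semaphorins, Sema7a led in every adult group and had rank 25 of the 31 members at E13.5. Over all exonic bases Sema3b, at 18.2 CPM per kb, stood above Sema7a, at 16.3, in 16-week hearts. Sema7a made up 1.63% ± 0.305 of the summed length-scaled semaphorin level at E13.5, 18.5% ± 4.73 at 6 weeks and 15.6% ± 1.61 at 16 weeks. Its share was 26.1% ± 2.25 in TAC hearts against 27.7% ± 3.19 in sham hearts. Sema6d, which has a role in heart tube formation in chick embryos, led at E13.5 with 12.6 ± 0.941 CPM per kb. The next was Sema4c, a ligand of Plxnb2, with 11.4 ± 1.36 CPM per kb. Summed semaphorin level was 95 ± 4.83 CPM per kb at E13.5, 122 ± 9.58 at 6 weeks and 120 ± 7.54 at 16 weeks, and was 153 ± 2.12 in TAC hearts against 121 ± 5.35 in sham hearts.

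**Figure D1:**
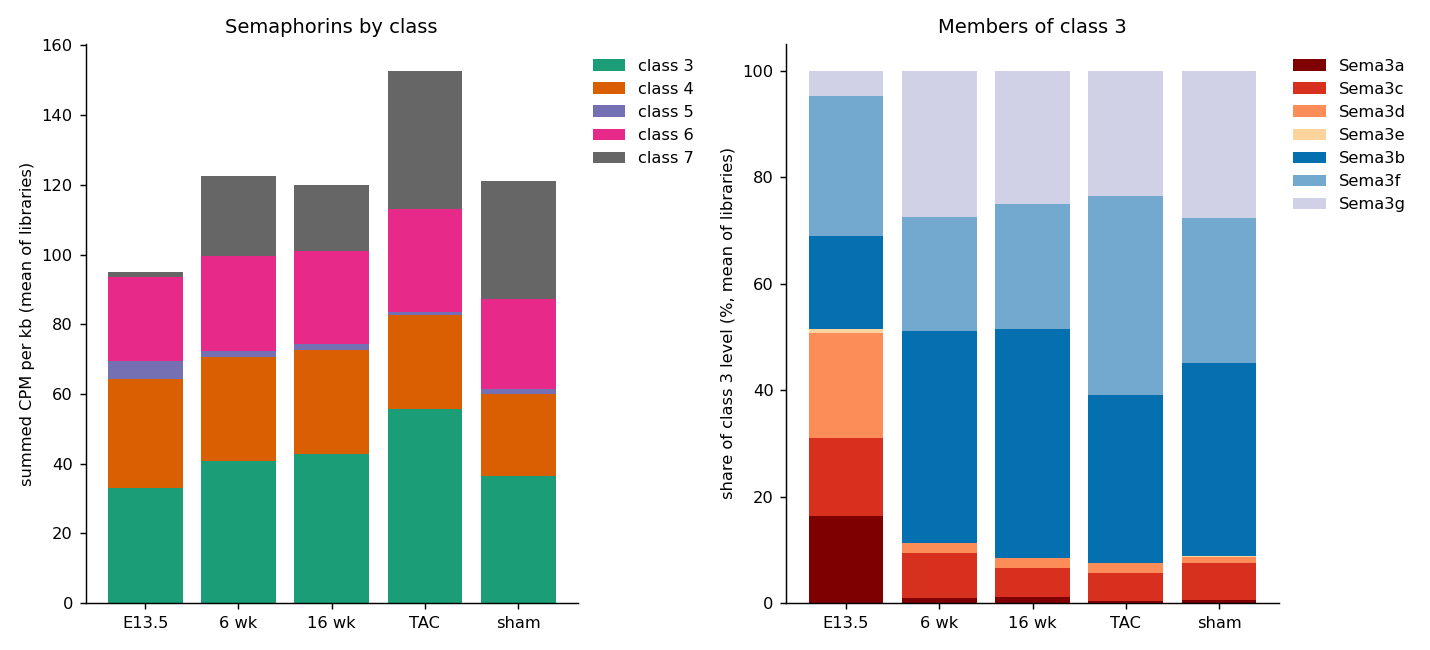
Left, summed length-scaled level of the 20 semaphorins by class, as the mean over the libraries of each group, in CPM per kb of own exonic sequence. Right, each class 3 member's share of the class 3 level; Sema3a, Sema3c, Sema3d and Sema3e, in red and orange, made up 51.5% at E13.5 and 8.53% at 16 weeks, and class 7 is Sema7a alone.

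The stage comparison set E13.5 hearts against unoperated adults, with both ages weighted equally. Embryonic hearts held far more RNA for the secreted semaphorins Sema3a and Sema3d, the membrane semaphorin Sema4g and the receptors Plxna3 and Plxnc1. They held far less for Sema7a, Sema3g, Sema6b and Plxnb3. By edgeR's quasi-likelihood test with Benjamini-Hochberg adjustment over 12766 features, 14 of the 29 members tested were higher, 12 were lower and 3 were not called at adjusted p under 0.05. Of all features tested, 83.8% were called, 44.1% higher and 39.7% lower, so the members' share of 89.7% is near the background. The median log2 fold change was 0.16 over the members tested and 0.07 over all features. At least 2-fold changes were called for 8 members upward and 6 downward, where 22.0% and 20.9% of all features had them. Sema3e and Sema4f were too low to be tested. In unoperated adults alone, Sema3a, Sema3c, Sema3d, Sema4g, Sema5b and Plxnc1 did not pass the filter on low counts. They entered this test with the embryonic libraries, where they were higher. All are among the 14 called higher, and all but Sema3c among the 8 with 2-fold increases. In bulk tissue fewer cells of a type and less RNA per cell cannot be told apart, and stage cannot be told apart from the sampling of whole hearts or apexes. Other marker sums also moved with the groups: 7 epicardial markers summed to 261 to 338 CPM at E13.5 and 11.6 to 26.0 CPM in unoperated adults, 8 fibroblast markers to 2530 to 4854 CPM against 1335 to 2491 CPM, and 7 erythroid markers to 10320 to 40101 CPM against 28.5 to 85.4 CPM. The epicardial and the 5 erythroid markers tested were all higher, whereas 5 fibroblast markers were higher and 3 lower. Their part in the results was not tested.

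Class 3 held large differences in both directions. Sema3a, a repellent of axons that places sympathetic nerves in the mouse ventricle, ran from 30.1 to 38.7 CPM at E13.5 with a median of 36.5, against 0.915 to 7.13 CPM with a median of 2 in the 12 unoperated adults. The lowest embryo was far above the highest adult, and the log2 fold change was 3.70 ± 0.19 (SE, adjusted p = 2.91e-16). Sema3d, which patterns the pulmonary veins of mouse embryos, ran from 13.4 to 20.3 CPM with a median of 13.8, against 0.793 to 3.69 CPM with a median of 1.79. Here too the groups were apart, with a log2 fold change of 3.08 ± 0.18 (adjusted p = 3.23e-16). Against sham hearts the log2 fold changes were 4.41 for Sema3a (adjusted p = 4.91e-15) and 3.84 for Sema3d (adjusted p = 5.66e-13). Both genes lie on the plus strand of chromosome 5. The 250 bases before their RefSeq start sites are shown because these windows are poor in G and C for the family, at 40.8% and 46.8%, against a median of 64.6% over the 26 members with a window. Sema3a is chr5:13396534-13396783 and Sema3d chr5:12382916-12383165, both on the plus strand of GRCm38.p6, which is another build than that of the counts. Capitals in Sema3d mark a CCAAT box read from the minus strand; Sema3a holds none of the motifs searched.
Sema3a: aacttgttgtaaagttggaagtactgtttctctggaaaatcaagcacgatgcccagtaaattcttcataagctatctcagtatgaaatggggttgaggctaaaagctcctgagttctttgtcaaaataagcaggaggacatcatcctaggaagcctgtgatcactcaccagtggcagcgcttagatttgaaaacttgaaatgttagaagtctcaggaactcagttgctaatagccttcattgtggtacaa
Sema3d: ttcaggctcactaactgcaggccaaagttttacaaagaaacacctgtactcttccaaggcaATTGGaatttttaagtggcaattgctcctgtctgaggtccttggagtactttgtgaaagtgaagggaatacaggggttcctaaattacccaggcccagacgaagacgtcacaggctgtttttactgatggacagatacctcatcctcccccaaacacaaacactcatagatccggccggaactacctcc

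The 2 other class 3 genes of chromosome 5 were also higher at E13.5. Sema3c, the ligand that draws neural crest cells into the mouse outflow tract, ran from 3.74 to 8.89 CPM with a median of 6.59, against 1.99 to 5.40 CPM with a median of 4.27 in unoperated adults. The ranges overlapped, and the log2 fold change was 0.77 ± 0.19 (adjusted p = 0.000472); against 6-week hearts alone it was 0.52 (adjusted p = 0.0514). Sema3e, the neuropilin-independent ligand of Plxnd1, had 15 to 35 counts in each embryonic library and 0 to 3 in each unoperated adult library, which is 1.26 to 2.65 CPM against 0 to 1.19 CPM. It did not pass the filter on low counts. Without that filter its log2 fold change was 2.69 ± 0.42 (adjusted p = 1.09e-09).

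The remaining class 3 genes, Sema3b and Sema3f on chromosome 9 and Sema3g on chromosome 14, were lower at E13.5 or not called. Sema3g, a ligand of Nrp2 made by endothelial cells, ran from 4.22 to 8.87 CPM with a median of 5.91, against 34.1 to 55.7 CPM with a median of 41.5. The groups were apart (log2 fold change -2.78 ± 0.13, adjusted p = 2.71e-17). Sema3b, which binds both neuropilins, ran from 19.8 to 32.3 CPM against 60.6 to 91.5 CPM, again without overlap (log2 fold change -1.58 ± 0.09, adjusted p = 2.15e-16). Sema3f, an Nrp2 ligand that repels axons and vessel sprouts, averaged 30.2 ± 4.79 CPM and 33.1 ± 8 CPM (SD, n = 7 and 12). Its log2 fold change was -0.12, with an approximate 95% interval from -0.37 to 0.13. With sham hearts in place of the unoperated adults Sema3f was called lower, by 0.28 on the log2 scale (adjusted p = 0.0245).

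Class 3 as a whole kept a similar share of the semaphorin level, 34.7% ± 1.87 at E13.5, 33.3% ± 2.75 at 6 weeks and 35.5% ± 1.13 at 16 weeks. Its makeup differed. The 4 chromosome 5 genes made up 51.5% of the class 3 level at E13.5 (44.3% to 58.3% over libraries), 11.3% at 6 weeks (9.77% to 15.1%) and 8.53% at 16 weeks (6.39% to 11.8%). Over all exonic bases these shares were 40.1%, 4.95% and 3.98%. On mm9, the build of the counts, the 4 genes span chr5:12383556-17236086, 4.85 Mb that hold 9 other coding genes. Of those, 2 were expressed enough to be tested: Pclo was higher at E13.5 and Cacna2d1 was lower.

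In class 4, 1 gene differed about as much as Sema3a. Sema4g, a membrane ligand of Plxnb2, ran from 15.7 to 28.8 CPM at E13.5 with a median of 19.4, against 0.483 to 2.91 CPM with a median of 1.41 in unoperated adults. The log2 fold change was 3.75 ± 0.20 (adjusted p = 9.05e-17). Sema4c was higher by less, averaging 48.5 ± 5.77 CPM and 37.3 ± 5.6 CPM with overlapping ranges (log2 fold change 0.38 ± 0.08, adjusted p = 0.000136). Sema4a, known from T cell activation and the retina, averaged 2.24 ± 0.616 CPM against 8.51 ± 3.15 CPM, with the groups apart (log2 fold change -1.91 ± 0.20, adjusted p = 6.10e-10). Sema4d, a ligand of Plxnb1 found on lymphocytes, was also lower (log2 fold change -0.47 ± 0.07, adjusted p = 4.31e-07). It was not called against sham hearts, where the log2 fold change was -0.02 (adjusted p = 0.747). Sema4b was not called, with a log2 fold change of -0.08 and a 95% interval from -0.24 to 0.08. Sema4f stayed under 3 CPM in every library.

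Both class 5 genes, whose proteins carry thrombospondin repeats, were higher at E13.5. Sema5a ran from 26.4 to 52.0 CPM with a median of 28.5, against 5.5 to 13.4 CPM with a median of 9.12, with a log2 fold change of 1.83 ± 0.15 (adjusted p = 2.32e-11). Sema5b averaged 8.83 ± 3.18 CPM against 3.69 ± 1.86 CPM with overlapping ranges (log2 fold change 1.3 ± 0.25, adjusted p = 3.38e-05). The highest embryonic value of both genes was that of replicate 3, the library rich in nerve markers; without it the log2 fold changes were 1.69 (adjusted p = 3.29e-14) and 1.12 (adjusted p = 2.13e-05). Against sham hearts that of Sema5b was larger, at 2.95 (adjusted p = 6.06e-07).

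Class 6 was split. Sema6d, a ligand of Plxna1, averaged 133 ± 9.94 CPM at E13.5 and 89.5 ± 15.1 CPM in unoperated adults, and the groups were apart (log2 fold change 0.57 ± 0.08, adjusted p = 3.97e-07). Sema6b, a ligand of Plxna4, ran from 3.19 to 4.38 CPM against 13.7 to 26.4 CPM (log2 fold change -2.38 ± 0.14, adjusted p = 5.06e-16), and the log2 fold change against sham hearts was -3.09 (adjusted p = 3.93e-14). Sema6a, a ligand of Plxna2 and Plxna4, averaged 37.0 ± 7.43 CPM against 55.5 ± 7.15 CPM with some overlap (log2 fold change -0.58 ± 0.10, adjusted p = 4.14e-06). Sema6c was not called, at 23.5 ± 5.23 CPM and 21.0 ± 6.22 CPM (log2 fold change 0.16, 95% interval -0.13 to 0.45); against sham hearts, which held 9.90 to 17.6 CPM, it was higher by 0.85 (adjusted p = 0.000932).

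Sema7a had the largest decrease of the family. It ran from 3.31 to 5.69 CPM at E13.5 with a median of 4.58, against 30.9 to 89.7 CPM with a median of 60.0 in unoperated adults. The log2 fold change was -3.74 ± 0.17 (adjusted p = 9.68e-16), which is 13.4-fold lower in embryos, and it was -4.53 against sham hearts (adjusted p = 2.68e-17). Its receptor Plxnc1 differed in the other direction, with 19.1 to 25.7 CPM and a median of 24.6 at E13.5, against 1.59 to 4.75 CPM with a median of 3.10 in adults (log2 fold change 2.95 ± 0.13, adjusted p = 7.17e-19). Macrophages and other myeloid cells are known to carry PLXNC1 in human tissue. The summed level of 9 macrophage markers was 152 to 201 CPM at E13.5 and 358 to 539 CPM in unoperated adults. Which cells held the Plxnc1 RNA was not tested. The window before Sema7a, chr9:57939862-57940111 on the plus strand of GRCm38.p6, is shown as an example of a promoter with GC boxes, the letters GGGCGG. Its 2 copies are in capitals, and 66.4% of its bases are G or C.
Sema7a: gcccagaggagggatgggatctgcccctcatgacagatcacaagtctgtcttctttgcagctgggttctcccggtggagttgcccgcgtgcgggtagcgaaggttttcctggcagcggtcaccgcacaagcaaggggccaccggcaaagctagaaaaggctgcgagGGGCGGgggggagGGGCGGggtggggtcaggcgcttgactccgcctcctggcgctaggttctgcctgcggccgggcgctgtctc

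Type A plexins, the signalling partners of neuropilins and the direct receptors of class 6, were higher at E13.5 except Plxna2. Plxna3, a receptor for Sema3f in axons, ran from 55.8 to 78.3 CPM with a median of 62.2, against 1.98 to 9.11 CPM with a median of 5.10. This is a log2 fold change of 3.59 ± 0.13 (adjusted p = 2.88e-21), the largest increase among the receptors. Plxna4, a receptor for Sema3a and Sema6a, averaged 139 ± 12.8 CPM against 48.9 ± 4.20 CPM (log2 fold change 1.51 ± 0.06, adjusted p = 4.23e-20). Plxna1 averaged 117 ± 13.3 CPM against 78.2 ± 9.41 CPM (log2 fold change 0.59 ± 0.07, adjusted p = 1.16e-08). Plxna2, which marks cardiac neural crest cells in mouse embryos, averaged 69.5 ± 6.16 CPM against 105 ± 17.0 CPM (log2 fold change -0.59 ± 0.08, adjusted p = 4.59e-08). All 4 were apart between embryos and unoperated adults, as 28.1% of all features were upward and 26.4% downward. The window before Plxna3 is shown because this X-linked gene differed most among the receptors. It is chrX:74328816-74329065 on the plus strand of GRCm38.p6, with 68.0% G and C. Capitals mark a GC box read from the minus strand.
Plxna3: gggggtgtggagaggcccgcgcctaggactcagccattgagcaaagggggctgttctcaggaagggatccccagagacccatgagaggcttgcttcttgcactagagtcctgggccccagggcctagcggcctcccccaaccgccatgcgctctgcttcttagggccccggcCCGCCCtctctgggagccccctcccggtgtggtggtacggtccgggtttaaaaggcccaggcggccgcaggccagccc

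Among the other plexins, Plxnd1 ran from 583 to 821 CPM at E13.5 against 293 to 485 CPM in unoperated adults, and the groups were apart (log2 fold change 0.75 ± 0.10, adjusted p = 2.54e-07). Summed endothelial markers were at 1121 to 1346 CPM against 1579 to 1926 CPM; of the 8 tested, 2 were higher, 5 lower and 1 not called. In that list of 9 genes Pecam1 was near 0, at no more than 2.31 CPM in any library. Plxnb3, a receptor for Sema5a, was at 1.23 to 2.35 CPM against 6.08 to 9.91 CPM (log2 fold change -2.17 ± 0.16, adjusted p = 2.97e-13). Plxnb1, the Sema4d receptor, averaged 165 ± 17.4 CPM against 217 ± 29.2 CPM with overlap (log2 fold change -0.39 ± 0.08, adjusted p = 3.08e-05). Plxnb2 was higher by 0.19 ± 0.06 (adjusted p = 0.00781), a call lost against 16-week hearts alone (0.13, adjusted p = 0.129) and against sham hearts (0.14, adjusted p = 0.0689).

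Both neuropilins were lower at E13.5. Nrp1 averaged 96.3 ± 8.10 CPM against 131 ± 15.6 CPM, with the groups apart (log2 fold change -0.44 ± 0.07, adjusted p = 5.73e-07). Nrp2, the co-receptor of Sema3f and VEGF-C, averaged 67.0 ± 17.1 CPM against 89.5 ± 15.8 CPM with overlap (log2 fold change -0.41 ± 0.14, adjusted p = 0.00973). The highest embryo for Nrp2 was replicate 3, at 102 CPM where the others had 50.3 to 73.1 CPM, and without it the log2 fold change was -0.54 (adjusted p = 8.24e-05). Against sham hearts the log2 fold changes were -0.70 for Nrp1 (adjusted p = 4.3e-08) and -1.09 for Nrp2 (adjusted p = 7.87e-05). Without the adult libraries that go against their sex label, Nrp2 was not called (log2 fold change -0.35, adjusted p = 0.063).

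**Figure D2:**
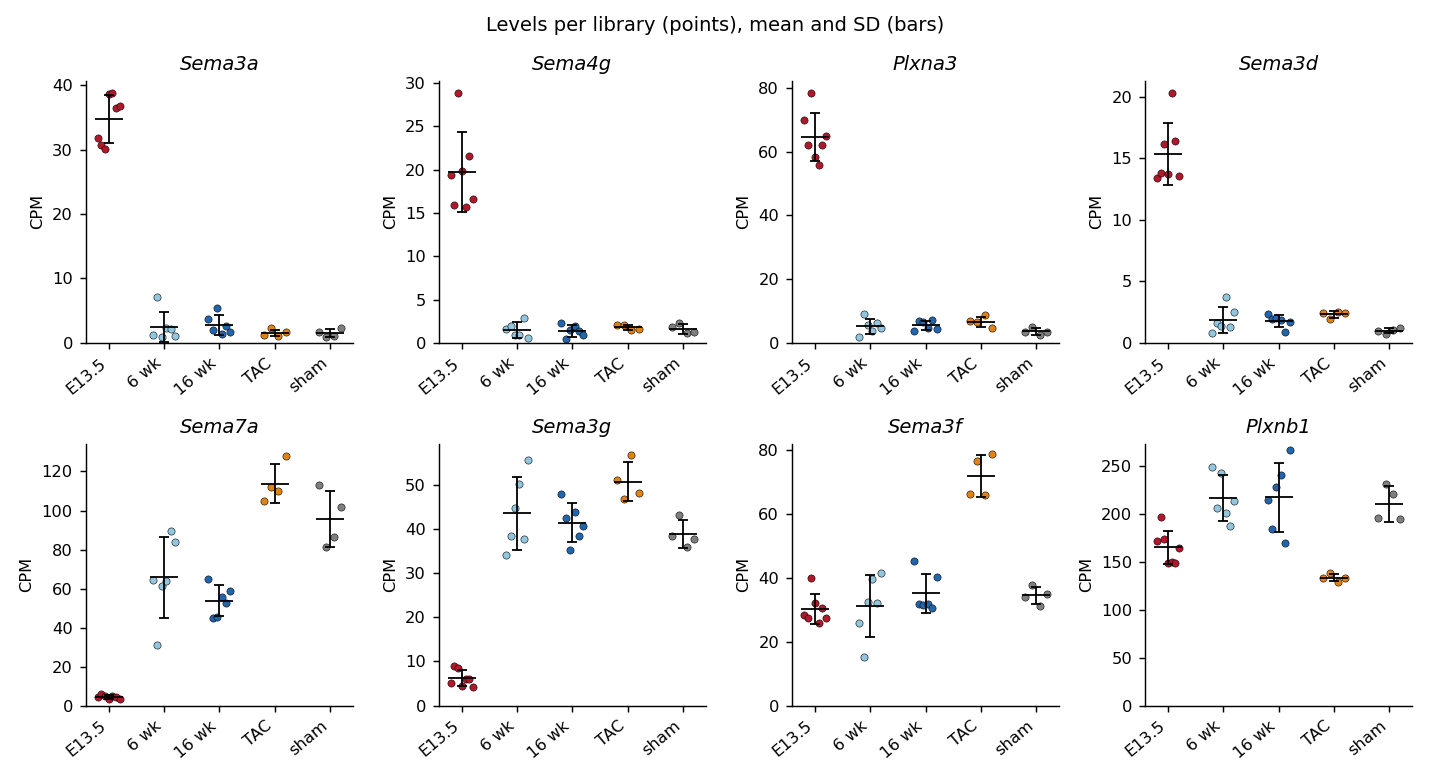
CPM per library for 8 members in the 5 groups; each point is 1 library, the long bar is the mean and the whiskers are the SD, on linear axes from 0. Sema3a, Sema4g, Plxna3 and Sema3d stand high at E13.5, Sema7a and Sema3g are low there, and in Sema3f and Plxnb1 the 4 TAC points lie apart from the 4 sham points.

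The sham hearts did not always match the unoperated adults, and the groups differ in age, surgery, encoding and depth together. Sema7a averaged 95.8 ± 14.5 CPM in sham hearts (n = 4) and 59.7 ± 16.2 CPM in unoperated adults (n = 12). Nrp2 averaged 134 ± 4.50 CPM and 89.5 ± 15.8 CPM, and Plxna2 148 ± 11.4 CPM and 105 ± 17.0 CPM. Sema4d, Sema6c and Sema5b lay the other way, at 48.7 ± 1.82, 12.5 ± 3.52 and 1.09 ± 0.419 CPM in sham hearts and 70.9 ± 9.12, 21.0 ± 6.22 and 3.69 ± 1.86 CPM in unoperated adults. No test was made of these differences. Of the 26 stage calls, 24 also held against sham hearts.

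In E13.5 replicate 3, 9 of the 29 members tested (31%) reached the highest value of the 7 embryos, as did 14.9% of all features tested. With the 2 members not tested these were Nrp2, Plxna1, Plxna3, Sema3e, Sema3f, Sema4f, Sema4g, Sema5a, Sema5b, Sema6a and Sema6c. Sema6a stood at 52.1 CPM there and at 31.3 to 39.5 CPM in the other embryos. Among the nerve markers of that library, Tubb3, a neuronal tubulin, was at 37.1 CPM, Stmn2 at 34.6 CPM and Dbh, the noradrenaline-making enzyme, at 23.6 CPM. Its 8 fibroblast markers summed to 4854 CPM, against 2530 to 3531 CPM in the other embryos. The collagen genes Col1a1, Col1a2 and Col3a1 made up most of that sum, at 2149, 1173 and 1291 CPM. Dcn and Pdgfra were also highest there, at 65.4 and 126 CPM. Tcf21 and Dpt were the lowest of the 7 embryos, at 24.2 and 5.23 CPM. All 26 calls held without this library, in the same directions.

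**Figure D3:**
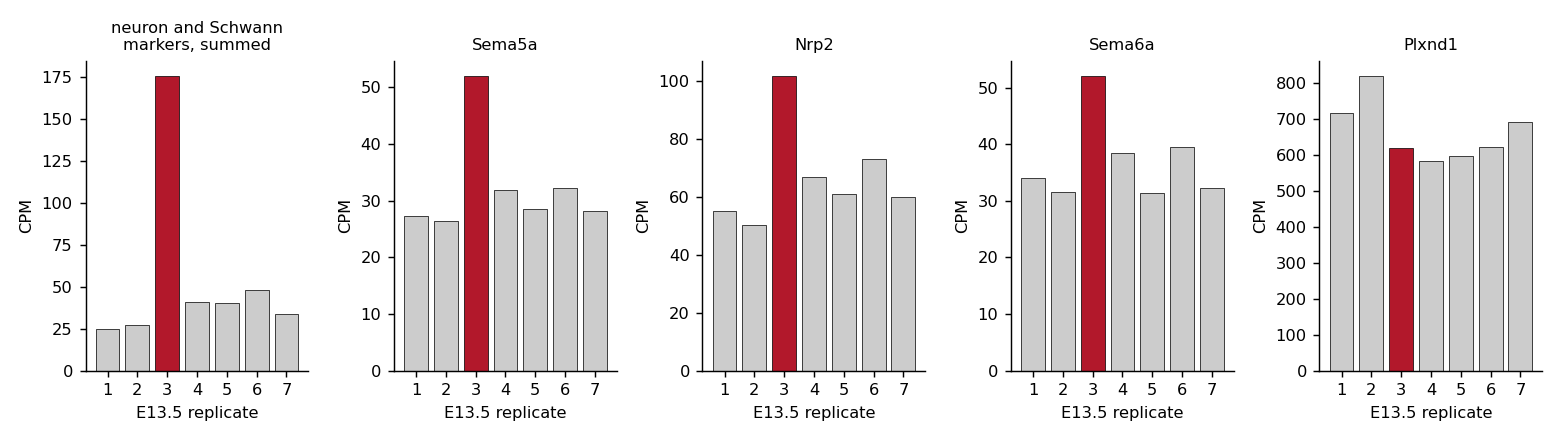
Values in the 7 embryonic libraries, in CPM on linear axes from 0, with replicate 3 in red and the others in grey: the sum of 11 neuron and Schwann cell markers, then Sema5a, Nrp2, Sema6a and Plxnd1. Replicate 3 is highest in the marker sum (176 CPM) and in Sema5a, Nrp2 and Sema6a, and not in Plxnd1.

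The windows before the start sites were rich in G and C for the family as a whole. RefSeq gave a window for 26 of the 31 members; none was in the table for Plxna1, Plxna4, Sema3b, Sema3f and Sema6a. Only the first listed window of each gene was searched, and some members have others, such as Sema4a with 4 windows and Sema4d with 3. The median G and C content was 64.6% over the members and 52.0% over all 27025 genes with a window. A GC box (GGGCGG, either strand) was found in 20 members, 76.9%, and in 32.9% of all windows. A CCAAT box (CCAAT, either strand) was found in Sema3d, Sema4f and Sema6c, 11.5%, against 34.5% of all windows. A TATA box (TATAAA) and a GATA motif (AGATAA) were found in no member, against 13% and 10.3% of all windows. An E-box (CACGTG) was found in Sema6d alone, 3.85%, against 6.05%. Median G and C content was 68.4% in the 12 members higher at E13.5 and 64.8% in the 10 lower. In the windows printed above, no hit overlaps another.

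**Figure D4:**
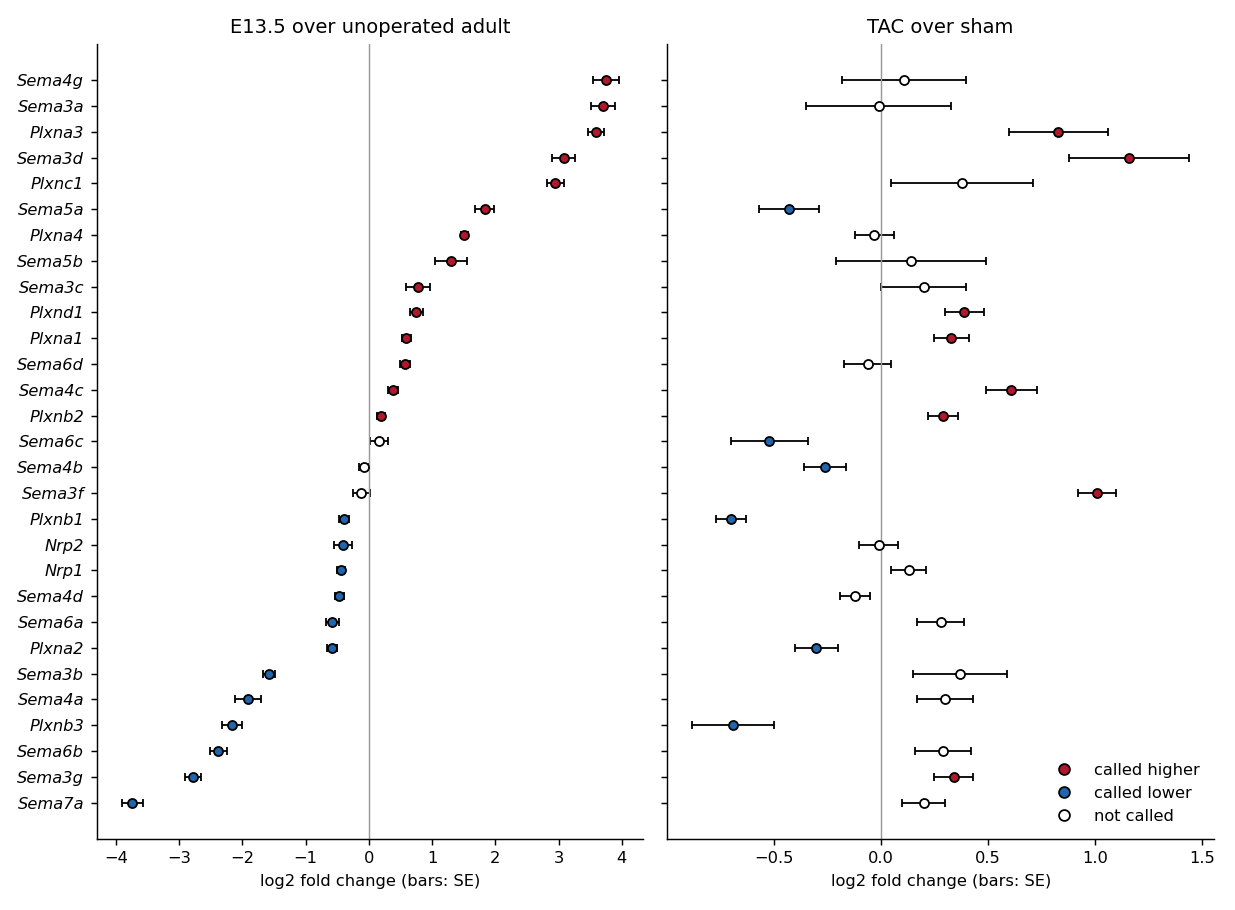
Log2 fold change of each of the 29 members tested, with its SE as the bar, for E13.5 over unoperated adults (left) and TAC over sham (right); genes are in the order of the left panel, and the 2 panels have different scales. Filled points passed an adjusted p of 0.05, red for higher and blue for lower, and the right panel shows Sema3d and Sema3f as the members furthest to the right.

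The age comparison set 16-week against 6-week unoperated hearts. No member was called among the 23 tested, where 2.51% of all 10394 features were called, 1.32% higher and 1.19% lower, by edgeR's quasi-likelihood test; DESeq2 and limma-voom also called 0. One member, Plxna2, had an unadjusted p under 0.05 (0.046, adjusted p = 0.286), at 97.6 ± 11.7 CPM at 16 weeks and 113 ± 19.1 CPM at 6 weeks (SD, n = 6 each). Log2 fold changes ran from -0.34 for Sema6c to 0.35 for Sema4a. Over the tested members, the lowest limit of any approximate 95% interval was -0.73 and the highest limit of any was 0.85. Sema7a averaged 53.7 ± 7.88 CPM at 16 weeks and 65.6 ± 20.6 CPM at 6 weeks. Without 6-week replicate 2, where it was at 30.9 CPM, it was called lower (log2 fold change -0.45, adjusted p = 0.0402). Plxnc1, Sema3a, Sema3c, Sema3d, Sema3e, Sema4f, Sema4g and Sema5b were too low to be tested at this depth.

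The overload comparison set TAC against sham hearts at the same age. TAC hearts held 2.02-fold more RNA for Sema3f and 2.24-fold more for Sema3d, and by smaller factors more for Plxna3, Sema4c, Plxnd1, Sema3g, Plxna1 and Plxnb2. They held less for Plxnb1, Plxnb3, Sema6c, Sema5a, Plxna2 and Sema4b. By edgeR's quasi-likelihood test 8 of the 29 members tested were higher, 6 were lower and 15 were not called, where 38.0% of all 14555 features were called, 19.6% higher and 18.4% lower. Called changes of at least 2-fold were seen in 2 members upward and 0 downward, against 2.97% and 4.41% of all features. One of the members upward, Sema3d, passed the filter on low counts through the TAC libraries, where it was higher. In 7 members upward and 2 downward the groups did not overlap, as in 21.4% and 14.3% of all features. The members' median log2 fold change was 0.20, against 0 over all features. Markers of other cells moved with the groups: 8 fibroblast markers summed to 2454 to 4834 CPM in TAC hearts and 1211 to 1362 CPM in sham hearts, and 9 macrophage markers to 743 to 1056 CPM against 539 to 603 CPM. Of these lists 5 of 8 and 4 of 9 genes were called higher, and no gene of either was at 0. Endothelial markers summed to 2008 to 2499 CPM in TAC hearts and 1995 to 2102 CPM in sham hearts. The 11 neuron and Schwann cell markers summed to 25.9 to 30.2 CPM in TAC hearts and 27.7 to 29.5 CPM in sham hearts. Of the 6 tested, 2 were called higher and 4 lower, with a median log2 fold change of -0.98. The part of these cells in the changes was not tested.

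Among the ligands, Sema3f changed most firmly. It stood at 66.3, 76.4, 65.8 and 78.7 CPM in TAC hearts, against 34.1, 37.8, 31.1 and 34.8 CPM in sham hearts. Every TAC heart was far above every sham heart, and the log2 fold change was 1.01 ± 0.09 (SE, adjusted p = 4.97e-07), 2.02-fold. It kept its call in every setting tried, with log2 fold changes of 0.97 to 1.07. Its share of the class 3 level was 37.3% in TAC hearts and 27.2% in sham hearts. Its co-receptor Nrp2 was not called, at 137 ± 21.2 CPM and 134 ± 4.50 CPM (log2 fold change -0.01, 95% interval -0.19 to 0.17).

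Sema3d stood at 2.45, 1.92, 2.47 and 2.43 CPM in TAC hearts, against 0.995, 0.689, 1.08 and 1.22 CPM in sham hearts. The groups were apart, as 21.4% of all features were in this direction, and the log2 fold change was 1.16 ± 0.28 (adjusted p = 0.00378). Its counts were 22, 18, 23 and 21 in TAC libraries and 9, 6, 7 and 12 in sham libraries. Sema3d therefore passed the filter on low counts through the TAC libraries, where it was higher. At this low level the call was lost without the libraries that go against their sex label, which leaves 2 hearts in each group (0.92, adjusted p = 0.0767). Sema3g stood at 51.2, 46.7, 56.7 and 48.2 CPM in TAC hearts, against 38.5, 43.2, 35.9 and 37.7 CPM in sham hearts. It too was apart (log2 fold change 0.34 ± 0.09, adjusted p = 0.00517). Sema3a, so much higher in embryos, was at 1.54 ± 0.520 CPM in TAC hearts and 1.48 ± 0.603 CPM in sham hearts (log2 fold change -0.01, 95% interval -0.67 to 0.64).

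Sema4c stood at 48.2, 39.1, 45.8 and 51.0 CPM in TAC hearts, against 30.1, 36.6, 24.2 and 25.9 CPM in sham hearts. The groups were apart, with a log2 fold change of 0.61 ± 0.12 (adjusted p = 0.00127). Its receptor Plxnb2 stood at 520, 502, 583 and 487 CPM against 436, 405, 413 and 411 CPM, also apart (log2 fold change 0.29 ± 0.07, adjusted p = 0.00396). Sema4b, Sema5a and Sema6c were lower by 0.26 ± 0.10 (adjusted p = 0.0438), 0.43 ± 0.14 (adjusted p = 0.0296) and 0.52 ± 0.18 (adjusted p = 0.0335) on the log2 scale. These calls were fragile. Sema4b lost its call without sham replicate 1, 3 or 4 or TAC replicate 1, 2 or F1 (log2 fold changes of -0.31 to -0.18 over the 8 fits that left out 1 library). Sema5a lost it without sham replicate 1, 3 or 4 or TAC replicate 1 or 2 (-0.49 to -0.35). Sema6c lost it without sham replicate 3 or TAC replicate 1, 2 or F1 (-0.63 to -0.32), and without the libraries that go against their sex label (-0.31, adjusted p = 0.185).

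Plxnb1 had the firmest decrease, to 133, 138, 129 and 133 CPM in TAC hearts, against 195, 231, 220 and 194 CPM in sham hearts. The TAC values lie close together and all below the sham values (log2 fold change -0.70 ± 0.07, adjusted p = 3.51e-06). It was the only lower member called in every setting, with log2 fold changes of -0.74 to -0.57. Its ligand Sema4d was not called, at 46.1 ± 2.52 CPM and 48.7 ± 1.82 CPM (log2 fold change -0.12, 95% interval -0.27 to 0.02). Plxnb3 stood at 5.01, 6.07, 4.18 and 4.17 CPM against 5.86, 9.64, 7.86 and 7.24 CPM, with a slight overlap (log2 fold change -0.69 ± 0.19, adjusted p = 0.00908). Its call was lost without the libraries that go against their sex label (-0.29, adjusted p = 0.328).

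Type A plexins moved in both directions. Plxna3 stood at 6.80, 6.39, 8.58 and 4.64 CPM in TAC hearts, against 3.32, 5.05, 2.47 and 3.47 CPM in sham hearts, with 1 pair of values out of order (log2 fold change 0.83 ± 0.23, adjusted p = 0.00943). Plxna1 averaged 119 ± 7.22 CPM against 91.8 ± 9.74 CPM, with the groups apart (log2 fold change 0.33 ± 0.08, adjusted p = 0.00417). Plxna2 averaged 124 ± 21.5 CPM against 148 ± 11.4 CPM with overlap (log2 fold change -0.30 ± 0.10, adjusted p = 0.0335), a call lost without sham replicate 1, 3 or 4 or TAC replicate 1, 2 or 3 (-0.41 to -0.22). Plxnd1 stood at 615, 660, 530 and 688 CPM against 441, 533, 451 and 417 CPM, overlapping by 1 pair (log2 fold change 0.39 ± 0.09, adjusted p = 0.00291). Plxnc1 was not called. It stood at 6.33 CPM in TAC replicate 3, against 2.56 to 2.78 CPM in the other TAC hearts and 1.77 to 4.01 CPM in sham hearts. That library had the highest macrophage, fibroblast and epicardial marker sums of the TAC hearts. Nrp1 averaged 166 ± 11.6 CPM and 147 ± 16.2 CPM and was not called (log2 fold change 0.13, 95% interval -0.03 to 0.29). Without the libraries that go against their sex label it was called higher (0.27, adjusted p = 0.0149).

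Some members missed the threshold and passed it in another setting. Sema3b stood at 91.1, 76.8, 88.7 and 46.5 CPM in TAC hearts, against 60.4, 65.6, 45.8 and 55.1 CPM in sham hearts (log2 fold change 0.37 ± 0.22, adjusted p = 0.23). The low TAC value is that of replicate F1, the female-labelled mouse, without which the log2 fold change was 0.56 (adjusted p = 0.00135). Sema3b was also called without the libraries that go against their sex label (0.50, adjusted p = 0.00198) and with all libraries in 1 fit (0.41, adjusted p = 0.0492). Sema4a averaged 13.2 ± 1.63 CPM against 10.4 ± 0.146 CPM with the groups apart (log2 fold change 0.30 ± 0.13, adjusted p = 0.0708), and 0.38 without F1 (adjusted p = 0.0307). Sema7a stood at 105, 112, 110 and 128 CPM against 113, 81.5, 86.3 and 102 CPM (log2 fold change 0.20 ± 0.10, adjusted p = 0.114), and 0.29 without sham replicate 1 (adjusted p = 0.0251). Sema6b without sham replicate 1 and Sema6a without sham replicate 3 were likewise called higher, by 0.43 (adjusted p = 0.0102) and 0.42 (adjusted p = 0.001). Sema6a, at 0.28 with an adjusted p of 0.0521 over all libraries, was also called without the libraries that go against their sex label (0.41, adjusted p = 0.00587), by limma-voom (0.31, adjusted p = 0.0294) and with no filter on low counts (0.34, adjusted p = 0.0011). With no filter Sema6b (0.34, adjusted p = 0.00405) and Sema7a (0.26, adjusted p = 0.0083) were called too. Plxna4, Sema3c, Sema4g, Sema5b and Sema6d were not called in any setting. Their log2 fold changes over all TAC and sham libraries were -0.06 to 0.20. Over the settings they ran from -0.08 to 0.04 for Plxna4, -0.07 to 0.30 for Sema3c and -0.01 to 0.39 for Sema4g. For Sema5b they ran from -0.09 to 0.66 and for Sema6d from -0.16 to 0.12. Sema3e and Sema4f were too low to be tested.

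The stage and overload comparisons share no library, so their calls can be set side by side. Of the 11 members called in both, 6 were higher in both (Plxna1, Plxna3, Plxnb2, Plxnd1, Sema3d and Sema4c) and 3 were lower in both (Plxna2, Plxnb1 and Plxnb3). Sema5a was higher in embryos and lower in TAC hearts, and Sema3g was lower in embryos and higher in TAC hearts. That is 9 of 11 in the same direction (81.8%), where 2388 of the 3990 features called in both were (59.8%). In both comparisons Sema3d passed the filter on low counts only through the group where it was higher. The size differed: Plxna3 was at 64.5 ± 7.62 CPM in embryos, 6.60 ± 1.62 CPM in TAC hearts and 3.58 ± 1.08 CPM in sham hearts. The 5 members with the largest stage increase were Sema4g, Sema3a, Plxna3, Sema3d and Plxnc1, and of these Plxna3 and Sema3d were called higher in TAC hearts. Sema3f, the firmest TAC increase, was not called between embryos and unoperated adults.

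Genes around the receptors were followed as a list of 60, of which 56 were in the table: co-receptors, other neuropilin ligands, small GTPases, exchange factors and cytoplasmic effectors. At E13.5, 30 of the 54 tested were higher and 17 lower, where 44.1% of all features were higher and 39.7% lower. Their median log2 fold change was 0.27, against 0.07 over all features. In unoperated adults alone, Dpysl5, Crmp1, Met, Pak1, Lrig3, Figf and Trem2 did not pass the filter on low counts. They entered this test with the embryonic libraries, where they were higher, and all are among the 30 called higher. Of the list genes with a mean of at least 5 CPM over the libraries compared, those with the largest increases were Dpysl5, Crmp1 and Dpysl3, members of the collapsin response mediator family that carries Sema3a signals in growth cones, with log2 fold changes of 4.54 ± 0.40, 4.39 ± 0.27 and 3.39 ± 0.08 (adjusted p = 1.22e-09, 1.32e-14 and 1.24e-25). Dpysl3 averaged 549 CPM in embryos and 52.6 CPM in unoperated adults. The family did not move as a whole. Dpysl2 was higher (log2 fold change 1.28 ± 0.08, adjusted p = 1.11e-15). Dpysl4 was lower, at 6.22 CPM against 20.7 CPM (-1.73 ± 0.18, adjusted p = 4.88e-09). Both were named after their values were seen. The largest decreases were of Vegfa and Vegfb, growth factors that bind Nrp1, at -1.91 ± 0.09 and -1.89 ± 0.06, and of Farp2, an exchange factor bound to type A plexins, at -1.82 ± 0.09 (adjusted p = 1.07e-17, 4.48e-23 and 6.89e-18).

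With age, none of the 46 list genes tested was called. In TAC hearts 24 of 55 were higher and 6 lower, where 19.6% of all features were higher and 18.4% lower. Their median log2 fold change was 0.26, against 0 over all features. Of the list genes with a mean of at least 5 CPM, Dpysl3 was higher by most, at 117 CPM in TAC hearts and 48.1 CPM in sham hearts (log2 fold change 1.24 ± 0.20, adjusted p = 0.00231). Rras2, a Ras-family GTPase, rose by 1.04 ± 0.10 (adjusted p = 2.01e-06) and Vegfc, the Nrp2-binding growth factor, by 0.81 ± 0.19 (adjusted p = 0.00376). Below that mean, Cd72, a receptor of Sema4d on B cells, was at 6.65 CPM in TAC hearts and 1.87 CPM in sham hearts (log2 fold change 1.78 ± 0.28, adjusted p = 0.000157), and Rnd1, a GTPase that binds plexins, at 5.4 and 2.44 CPM (1.08 ± 0.22, adjusted p = 0.00112); both were named after their values were seen. Pgf, a VEGF relative, was lower by 1.04 ± 0.26 on the log2 scale (adjusted p = 0.00911), at 6.30 CPM against 12.5 CPM. Itga1, an alpha integrin chain, and the GTPase gene Cdc42 were lower by 0.35 ± 0.09 and 0.33 ± 0.08 (adjusted p = 0.0057 and 0.00557).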

How the data were processed

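The deposited values are read counts per feature, whole numbers that the authors made from non-stranded single-end reads; Bowtie, TopHat 1.3.0, HTSeq, DESeq and edgeR and the build mm9 are named per the submitters' processing notes. Reads of overlapping or antisense features therefore cannot be told apart. Samples were grouped by title; a second embryo age label that rises by a step with each sample was not used. The rule for the members used gene symbols only and no measured value. That rule, the gene lists and the tests were nevertheless set with earlier results of these data known.

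Counts were tested with edgeR 4.0.16 in R 4.3.3 (quasi-likelihood, robust, TMM scaling, filterByExpr with a minimum count of 10 and a minimum total of 15), with Benjamini-Hochberg adjustment over all features and calls at an adjusted p under 0.05. The stage contrast was E13.5 minus the mean of the 6-week and 16-week groups. Each SE is the size of the log2 fold change divided by the root of its F statistic. All intervals given for log2 fold changes are a normal multiple of this SE to each side. They are approximate and narrower than the quasi-likelihood test implies. For Sema7a in TAC against sham hearts the interval was 0.01 to 0.39, although the unadjusted quasi-likelihood p was 0.0545. Calls rest on the adjusted p and not on the intervals. Every member is accounted for; of the pathway genes, the rule named up to 3 called genes per direction with the largest change and at least 5 CPM. Alternatives were other scaling (RLE, no mitochondrial features), DESeq2 1.42.0, limma-voom (limma 3.58.1), other filters, all libraries in 1 fit, the replicate number as a block, each library left out, libraries against their sex label left out (more than 3 Y-linked counts taken as male), other adult groups and thinned embryonic counts. The fits were tested on simulated data. No replicate pair was closer than sampling noise allows (lowest chi-square per degree of freedom 2.42). Promoter windows are the 250 bases before the first listed start of each gene in RefSeq, GRCm38.p6. Depth limits the unoperated adults most.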

Additional observations from a re-analysis of the deposited data

Results flagged for a closer look

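In each group of 4 to 10 libraries, the highest or lowest library was set against Dixon's critical value. Of 155 such tests over members and groups 11 passed, where chance gives about 5%, or 1 in 20. No cause was tested.

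E13.5 replicate 3 passed for 3 members: Sema5a at 52.0 CPM (26.4 to 32.2 CPM in the other embryos), Sema6a at 52.1 CPM (31.3 to 39.5 CPM) and Sema4f at 1.97 CPM (0.244 to 0.863 CPM). Its neuron and Schwann cell markers summed to 176 CPM, against 25.0 to 47.9 CPM in the others. TAC replicate 3 passed for Plxnc1 at 6.33 CPM (2.56 to 2.78 CPM in the other TAC hearts) and, on the low side, for Plxna4 at 41.3 CPM (50.3 to 52.0 CPM). Its macrophage markers summed to 1056 CPM, against 743 to 761 CPM. Its fibroblast markers summed to 4834 CPM, against 2454 to 3290 CPM, and its epicardial markers to 45.6 CPM, against 28.6 to 29.5 CPM.

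The other 6 were in different libraries. Plxna2 was low in E13.5 replicate 4, at 56.1 CPM (69.9 to 74.7 CPM). Sema4c was high in E13.5 replicate 2, at 60.2 CPM (42.5 to 49.3 CPM). Sema3d was low in TAC replicate 2, at 1.92 CPM (2.43 to 2.47 CPM). Among 6-week hearts, Sema3a was high in replicate 2 at 7.13 CPM (0.915 to 2.31 CPM), Sema3e in replicate 1 at 1.19 CPM (0 to 0.396 CPM) and Sema5a in replicate 4 at 13.4 CPM (8.61 to 9.92 CPM).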

How the results depend on the processing

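No member's called direction was reversed in any setting tried. At E13.5 the count of members called higher was 14 in each of the 19 fits that left out 1 library and 14 to 16 in 13 other settings; the count called lower was 12, and 11 to 13. In TAC hearts the count called higher was 8 to 10 with 1 library left out and 7 to 11 otherwise. The count called lower was 2 to 6 with 1 library left out: 3 without sham replicate 1 or 4, and 2 without sham replicate 3, TAC replicate 1 or TAC replicate 2. With all libraries in 1 fit it was 2, and the cause was not tested. With age, 0 were called higher, and 0 to 1 lower with 1 library left out (1 without 6-week replicate 2). The replicate numbers did not pair the samples: same-numbered samples' deviations correlated by -0.16 to 0.15. With the replicate block, the counts called higher and lower were 14 and 12 at E13.5, 0 and 0 with age, and 7 and 4 in TAC hearts, where Plxna1, Sema3g, Sema4b and Sema5a were not called under the block (adjusted p = 0.0726, 0.0533, 0.314 and 0.07) and Sema3b was (0.0163). Genes under about 10 counts per library, such as Sema3e, could not be tested at the depth of the unoperated adults.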
